A study of Homo sapiens with 23 samples.

Results

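The 10 genes TRIM28, SETDB1, ATF7IP, CBX1, CBX3, CBX5, SUV39H1, SUV39H2, EHMT1 and EHMT2 encode the machinery that a KRAB domain recruits, together with the other main writers and the readers of histone H3 lysine methylation in heterochromatin. They were listed by name for what the proteins do, with earlier results of these data known, and all 10 passed the filter on low counts, which left 16371 genes in the RNA-seq comparison. The study induced a KRAB fusion in NCCITs, a human embryonal carcinoma line, and compared the cells with and without it. RNA-seq was available from 3 libraries of untreated and 3 libraries of doxycycline-treated cells, YY1 ChIP-seq from 2 against 2, H3K9me3 ChIP-seq from 2 against 2 with 1 further library of NCCITs that carried no fusion, and OCT4 ChIP-seq from 1 against 1. The treated and the untreated cells were both SCi-NCCITs, which hold a tetracycline-inducible dCas9-KRAB cassette, selected with puromycin from isolated stable clones, and a pair of constitutively expressed sgRNAs against SVA transposons, which also match LTR5Hs elements, selected with geneticin. Treatment was 2 µg/mL doxycycline for 72 hours. No library came from treated cells that lacked dCas9-KRAB or the sgRNAs, so doxycycline itself and the repression of SVAs or LTR5Hs cannot be told apart. The labels do not say that replicates came from separate cultures, and p-values then measure only the spread between these libraries.

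KRAB domains bind TRIM28 (KAP1), a scaffold that brings in the histone methyltransferase SETDB1 together with its stabilizing partner ATF7IP. SETDB1 places H3K9me3, which the HP1 proteins CBX5 (HP1α), CBX1 (HP1β) and CBX3 (HP1γ) read, and SUV39H1 and SUV39H2 write the same mark in pericentromeric heterochromatin. EHMT1 (GLP) and EHMT2 (G9a) form a dimer that writes the lower methylation states of the same lysine. In pluripotent cells this machinery is best known for silencing transposons.

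By hg19 coordinates, TRIM28 lies at chr19:59055431-59062089, SETDB1 at chr1:150898739-150937220, ATF7IP at chr12:14518610-14655865, CBX1 at chr17:46147414-46178840 and CBX3 at chr7:26240782-26253227. CBX5 lies at chr12:54624726-54673917, SUV39H1 at chrX:48553945-48567407, SUV39H2 at chr10:14920819-14946314, EHMT1 at chr9:140513444-140764468 and EHMT2 at chr6:31847536-31865475.

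With the induced fusion, none of the 10 genes passed the test between conditions, where 17.5% of all genes did. For the 9 genes other than EHMT2, the largest estimated log2 fold change was -0.19 in ATF7IP, and the 95% intervals ran from -0.35 to 0.26. YY1 peaks touched the promoter windows of 8 of the 10 genes in both libraries of each condition, with EHMT2 counted although it could not be read. They did so at 55.8% of all genes without and 63.3% with doxycycline. Fold enrichment of peaks that touched the window of the main start site was highest at CBX5, CBX3 and SUV39H2. The CBX3 peak had its summit outside that window, nearer to the start site of the neighbour HNRNPA2B1. The CBX5 peak lay between the start sites of CBX5 and its neighbour HNRNPA1. An H3K9me3 peak touched the window of the main start site of ATF7IP alone. That start site is internal to the gene, 58079 bp from the canonical one, and the body of ATF7IP was also the most widely covered.

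EHMT2 could not be read from these files, and its values are given for completeness only. Its annotated coding transcripts were listed near 0, and its 17 to 101 reads per library were assigned mostly to EHMT2-210, a transcript with no coding sequence that made up 53.0% of its TPM without and 56.3% with doxycycline (means of 3 libraries). The files also hold targets outside the annotation used here, and 25 of these had exactly the length of an EHMT2 coding transcript. Of the 25, 12 also shared their values in all 6 libraries with another target outside the annotation, of any length. These 12 summed to between 22.0 and 28.0 TPM per library. For the other 9 genes, targets matched by length and by shared values summed to at most 2.69 TPM, at SUV39H1. The counts of targets did not single out EHMT2, since CBX3 had 23 of equal length, 14 of them with shared values. Those 14 summed to at most 0.478 TPM in a library. Length alone did not single it out either, since 12 targets with lengths of EHMT1 coding transcripts summed to 43.1 to 49.2 TPM. In the stretch of chromosome 6 around the gene (29 to 33 Mb of hg19), each YY1 list held 0 to 2 peaks, against 148 to 256 in the interval from 34 to 38 Mb. Of 72 tested genes in the first interval, 0 or 1 had a YY1 promoter peak in a library, against 31 to 36 of 46 in the second. The absence of a peak at EHMT2 therefore carries no information on the gene.

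YY1 is a zinc-finger factor that binds many promoters of housekeeping genes, and the study mapped it in these cells together with H3K9me3. A gene was counted as carrying a promoter peak when a peak of the authors' list touched the 1000 bp on either side of its main transcription start site (TSS), the 5′ end of the transcript with the highest summed TPM. The 8 genes with such a peak in both libraries of each condition were TRIM28, SETDB1, CBX1, CBX3, CBX5, SUV39H1, SUV39H2 and EHMT1. Of all genes tested, 55.8% had one in both libraries without and 63.3% in both libraries with doxycycline. Fold enrichment is read here as the ratio of the pileup at the summit to the local background. The peak caller that defines it is not given in the sources used here. The median fold enrichment over all genes with a promoter peak was 7.98 to 9.06 in the 4 libraries.

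The sequences near the summits are shown because they carry the letters of the YY1 recognition motif. The motif GCCATNTT and its reverse complement AANATGGC were searched in the 101 bp of hg19 centred on the median summit of the 4 libraries, on both strands. Each line gives the 30 bp around a match, read on the strand of the gene, with the match in capitals.
CBX5, chr12:54674085-54674114, minus strand: gcacgtgtagtAAAATGGCgagttttgcgc
CBX3, chr7:26239741-26239770, plus strand: ggcgagccatgAAAATGGCggccgccaaat
SUV39H2, chr10:14920874-14920903, plus strand: gaaagctctacAAGATGGCggcggtcgggg
SUV39H1, chrX:48555162-48555191, plus strand: agccgtggggaAAGATGGCggaaaatttaa
ATF7IP inner start, first match, chr12:14538193-14538222, plus strand: gcacattgcaGCCATCTTaattacactttt
ATF7IP inner start, second match, chr12:14538239-14538268, plus strand: gcagctgtctcAAAATGGCtgctaacctag

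CBX5, CBX3, SUV39H2 and SUV39H1 held 1 match each, in every case as AANATGGC on the gene's strand, and the inner window of ATF7IP held 2, 1 on each strand. The windows of TRIM28, SETDB1, CBX1, EHMT1 and the outer start of ATF7IP held none. Among the 8922 genes with a YY1 promoter peak in all 4 libraries, 24.9% of such windows held the motif, against 6.0% of windows of the same length centred on the TSS of all genes tested. The string CCGCCAT, or ATGGCGG on the other strand, overlaps the first motif and was searched after the sequences had been seen. It was present in the windows of CBX3, CBX5, SUV39H1, SUV39H2, TRIM28 and the outer start of ATF7IP, and in 23.5% of the YY1 windows and 6.1% of the TSS windows. For TRIM28 and ATF7IP, which lacked the first motif there, the 30 bp around it are given with the string in capitals.
TRIM28, chr19:59056112-59056141, plus strand: cggcggcgtgtgaATGGCGGcctccgcggc
ATF7IP outer start, chr12:14518828-14518857, plus strand: tcaagaccgcattATGGCGGctgcgggagt

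In the annotation, the median summit lay in a coding exon of TRIM28 and of SUV39H2, in an untranslated exon of SETDB1, of SUV39H1 and of ATF7IP at its inner start, and in an intron of ATF7IP at its outer start. At CBX1 it lay just beyond the 5′ end, with the summits of the single libraries on both sides of it, and at EHMT1 outside that gene. At CBX3 and CBX5 it fell in exons of the neighbours HNRNPA2B1 and HNRNPA1. Matches are letters in a window and were not tested as binding sites.

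CBX5, the gene of HP1α, had the highest fold enrichment at a main TSS, with 65.6 and 54.5 in the libraries without and 65.1 and 76.0 in those with doxycycline. These values exceeded those of 93.5% to 96.4% of the genes with a peak. The summit lay 135 to 182 bp upstream of the TSS, between the main TSSs of CBX5 and HNRNPA1, a splicing factor gene that is transcribed in the opposite direction from a TSS 653 bp away. The promoter is therefore shared in position, and the peak cannot be assigned to 1 of the genes.

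CBX3, the gene of HP1γ, had values of 56.1 and 48.4 without and 52.5 and 50.6 with doxycycline. This peak only reached into the window of the promoter. Its summit lay 1584 to 1604 bp upstream of the CBX3 TSS and 886 to 906 bp from the TSS of HNRNPA2B1, the divergent neighbour 698 bp away. Weaker peaks, of 4.75 to 11.2, had summits 406 to 1300 bp downstream of the CBX3 TSS and were present in all 4 libraries.

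SUV39H2 had the most precisely placed peak of the 8, with the summits of the 4 libraries within 2 bp of each other, 27 to 29 bp downstream of the TSS. Its fold enrichment was 49.6 and 37.7 without and 55.8 and 61.5 with doxycycline. SUV39H1 had 17.6 and 21.0 without and 28.0 and 37.4 with doxycycline. EHMT1 had 25.3 and 19.5 without and 34.3 and 23.8 with doxycycline.

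TRIM28 and SETDB1 were nearer to the median, above 44.8% to 68.9% of the genes with a peak. TRIM28 had a fold enrichment of 13.7 and 7.65 without and 16.4 and 11.1 with doxycycline, and SETDB1 had 7.13 and 8.83 without and 10.9 and 11.8 with doxycycline. CBX1, the gene of HP1β, had the weakest peak of the 8, with 5.26 and 3.33 without and 4.36 and 5.89 with doxycycline. Its summits spread over 159 bp, and it stood above only 2.85% to 31.3% of the genes with a peak.

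ATF7IP showed how the choice of TSS decides such a count. Its main TSS, that of ATF7IP-214 at position 14576695 of chromosome 12, is internal to the gene and had 1 weak YY1 peak, of 4.03, in 1 library without doxycycline. The TSS of its canonical transcript ATF7IP-201, 58079 bp upstream, had peaks in all 4 libraries, with values of 16.1 and 22.4 without and 17.0 and 24.4 with doxycycline. ATF7IP-214 made up 34.3% of the gene's TPM without and 29.2% with doxycycline, and ATF7IP-201 25.1% and 27.9%. ATF7IP-221 (8.24% and 12.6%) and ATF7IP-209 (7.21% and 5.47%) also start near ATF7IP-201. The choice of main TSS ranked single transcripts and not the sum of those that start together. A further YY1 peak at an inner start, that of ATF7IP-216, was picked out after its values were seen and reached 62.8 and 81.5 without and 58.3 and 80.7 with doxycycline. ATF7IP-216 itself made up 1.85% of the gene's TPM without and 0.971% with doxycycline, and ATF7IP-222, which also starts there, 8.99% and 10.0%.

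**Figure D1:**
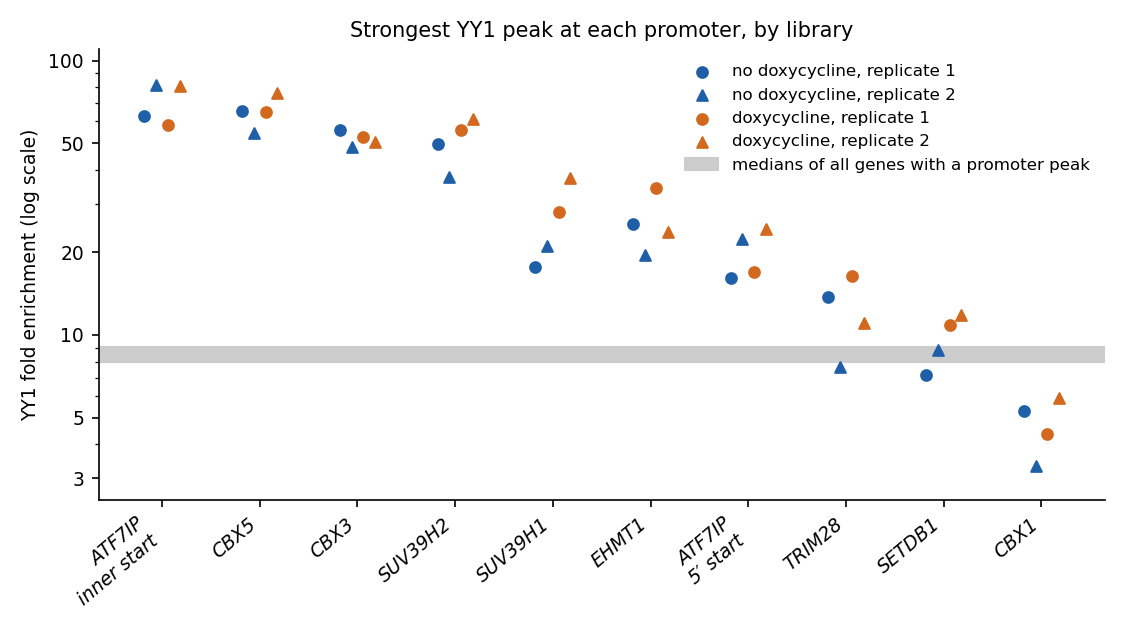
YY1 fold enrichment of the strongest peak at each promoter (log axis), with 1 point per library and the range of the 4 library medians over all genes with a promoter peak as a grey band. CBX5, CBX3, SUV39H2 and the inner start of ATF7IP lie at 37.7 or above in every library, and CBX1 lies below the band in every library. The CBX3 points are those of a peak with its summit outside the promoter window, nearer to the TSS of HNRNPA2B1.

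Between conditions, the YY1 values of SETDB1, SUV39H1 and SUV39H2 did not overlap and were higher with doxycycline, by 0.51, 0.75 and 0.44 in the mean of log2 fold enrichment. With 2 libraries against 2, the exact two-sided permutation test gave p = 0.333 for each, the smallest value it can give. Non-overlap in this direction occurred in 39.8% of the 8922 genes with a peak in all 4 libraries and in the other direction in 3.3%. The median log2 ratio over those genes was 0.26, so the lists with doxycycline were higher in general. For TRIM28, CBX1, CBX3, CBX5 and EHMT1 the groups overlapped, with log2 ratios from -0.02 at CBX3 to 0.40 at TRIM28. The CBX3 ratio is that of the peak nearer to the TSS of HNRNPA2B1.

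OCT4, the pluripotency factor, was mapped in 1 library per condition, and no difference could be tested. Without doxycycline it had promoter peaks at SETDB1 (4.48), CBX1 (5.91), CBX3 (7.71) and CBX5 (4.93), 4 of the 10 genes against 38.9% of all genes. With doxycycline only CBX3 had one (4.21), against 4.56% of all genes, and the list as a whole was shorter, with 23352 peaks against 50775. The outer start of ATF7IP had an OCT4 peak in both libraries, of 12.2 and 7.26.

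H3K9me3 is the mark that SETDB1, SUV39H1 and SUV39H2 write and the HP1 proteins read. Peaks of it were rare at promoters, in these genes as in all genes tested. ATF7IP was the 1 gene with a peak at its main TSS in both libraries of each condition, and each of these libraries had 2. This TSS is internal to the gene, whose body held 33 and 41 H3K9me3 peaks without and 33 and 45 with doxycycline. The stronger peak of each library at this TSS had a fold enrichment of 7.31 and 6.51 without and 6.88 and 7.64 with doxycycline. It was not the same peak in both replicates. In replicate 1 of both conditions it lay downstream of the TSS and wholly in an exon. In replicate 2 it lay upstream and outside exons. The weaker peak of each library lay mainly on the other side, at 5.04 and 3.97 without and 4.72 and 5.45 with doxycycline. A promoter peak in both libraries occurred in 2.99% of all genes without and in 2.67% with doxycycline. The NCCITs without the fusion had none there. At the outer start of ATF7IP, weak H3K9me3 peaks were listed in all 5 libraries, at 3.27 in NCCITs, 4.79 and 4.70 without and 4.04 and 2.64 with doxycycline. With 2000 bp on either side of the TSS, CBX1 was counted as well, through peaks of 3.67 to 5.63 in all 5 libraries, whose summits lay 1563 to 2038 bp from the TSS and which did not all overlap one another.

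Over the gene bodies, ATF7IP was again the most covered. Peaks lay over 18.2% of the gene in NCCITs, 27.6% and 30.9% without and 17.8% and 35.9% with doxycycline, and the 2 conditions overlapped. Of all genes tested, 2.60% to 5.41% were covered as much or more, and the median coverage of all genes was 0. The strongest peak in ATF7IP reached 9.86 in NCCITs, 17.6 and 18.2 without and 10.3 and 19.5 with doxycycline.

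EHMT1 was covered over 6.94% in NCCITs, 10.4% and 6.24% without and 6.50% and 6.19% with doxycycline, and 12.1% to 19.4% of all genes were covered as much or more. SETDB1 held 1 intronic peak that was present in all 5 libraries, with the shared stretch chr1:150903083-150904880. Its fold enrichment was 3.88 in NCCITs, 8.85 and 10.4 without and 6.07 and 9.69 with doxycycline. SETDB1 thus carried the mark that it writes in an intron, and neither the presence nor the height of the peak separated the conditions.

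TRIM28, CBX1 and CBX3 had peaks near the 3′ end in replicate 1 of both conditions, with none in replicate 2 or in NCCITs. They covered 14.4% and 8.41% of TRIM28, 6.11% and 3.78% of CBX3 and 1.06% and 1.16% of CBX1, in the untreated and the treated library in this order. At CBX1 and CBX3 these peaks lay wholly in exons, and at TRIM28 535 of 625, 255 of 334 and 389 of 560 bp did. YY1 peaks also covered more of TRIM28 in replicate 1 (73.1% without and 53.8% with doxycycline) than in replicate 2 (11.3% and 16.2%). The source of this difference between replicates was not tested. CBX5, SUV39H1 and SUV39H2 had no H3K9me3 peak in the gene body in any library, where 40.2% to 48.0% of all genes had at least 1.

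**Figure D2:**
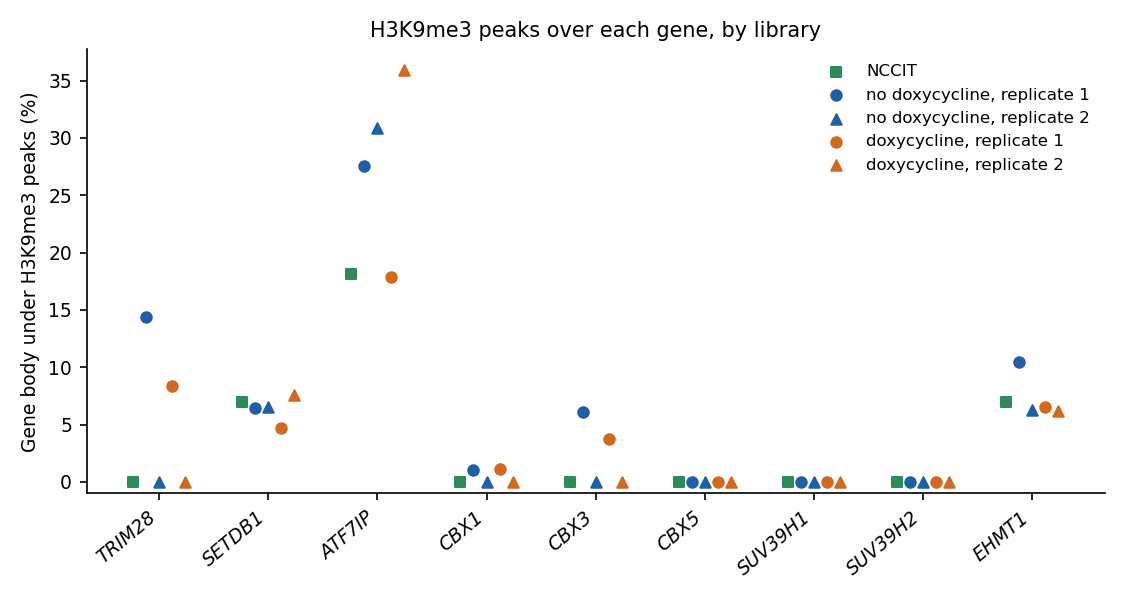
Share of each gene body under H3K9me3 peaks (%), with 1 point per library, for NCCITs without the fusion and SCi-NCCITs with and without doxycycline. ATF7IP lies between 17.8% and 35.9%, and the libraries of the conditions interleave.

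The RNA levels covered a wide range, and the order of the 10 genes was the same in both conditions. TPM corrects for transcript length and so allows levels of different genes to be compared within a library. TRIM28 was the most abundant, at 432, 443 and 416 TPM without and 391, 395 and 374 TPM with doxycycline, which placed it above 98.4% of the tested genes in the untreated cells. The methyltransferase that TRIM28 recruits was 6.22 to 7.06 times lower in TPM in each of the 6 libraries, with SETDB1 at 68.9, 67.1 and 61.0 TPM without and 55.3, 57.2 and 60.1 TPM with doxycycline. ATF7IP, which protects SETDB1 from degradation, had 30.1, 33.4 and 33.4 TPM without and 27.0, 24.8 and 29.7 TPM with doxycycline.

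Of the 3 HP1 genes, CBX3 was highest, at 158, 156 and 156 TPM without and 134, 134 and 147 TPM with doxycycline. CBX1 followed at 134, 128 and 118 TPM without and 121, 121 and 131 TPM with doxycycline. CBX5 had 25.5, 32.4 and 30.4 TPM without and 24.3, 22.8 and 31.0 TPM with doxycycline. In their summed TPM, CBX3 made up 47.5% to 51.2%, CBX1 38.8% to 43.6% and CBX5 8.01% to 10.2% across the 6 libraries. CBX5 thus had the lowest TPM of the 3. Its main transcript CBX5-201 has 11546 nt, against 2182 nt for CBX1-201 and 2061 nt for CBX3-202. In counts per library size, without correction for length, CBX5 was highest, with means without doxycycline of 215, against 199 for CBX3 and 182 for CBX1. The YY1 peak in the promoter window of CBX5 was the highest of the 3 but could not be assigned to CBX5 rather than HNRNPA1. A relation between YY1 peaks and RNA levels was not tested.

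SUV39H2 was 3.11 to 4.13 times as abundant as its paralog SUV39H1 in TPM, without the targets outside the annotation that had a length of a SUV39H1 coding transcript and shared values, which summed to 1.36 to 2.69 TPM. Its levels were 22.3, 25.3 and 24.2 TPM without and 20.7, 22.3 and 24.0 TPM with doxycycline. SUV39H1 had 6.33, 6.13 and 5.86 TPM without and 6.64, 6.00 and 6.52 TPM with doxycycline, and EHMT1 had 42.2, 45.5 and 42.6 TPM without and 45.3, 42.5 and 39.6 TPM with doxycycline. EHMT2 was listed at 0.886 to 1.89 TPM, with the limit given above. In the order of levels, the ranges of neighbours were apart except for ATF7IP and CBX5 in both conditions and CBX5 and SUV39H2 in treated cells.

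**Figure D3:**
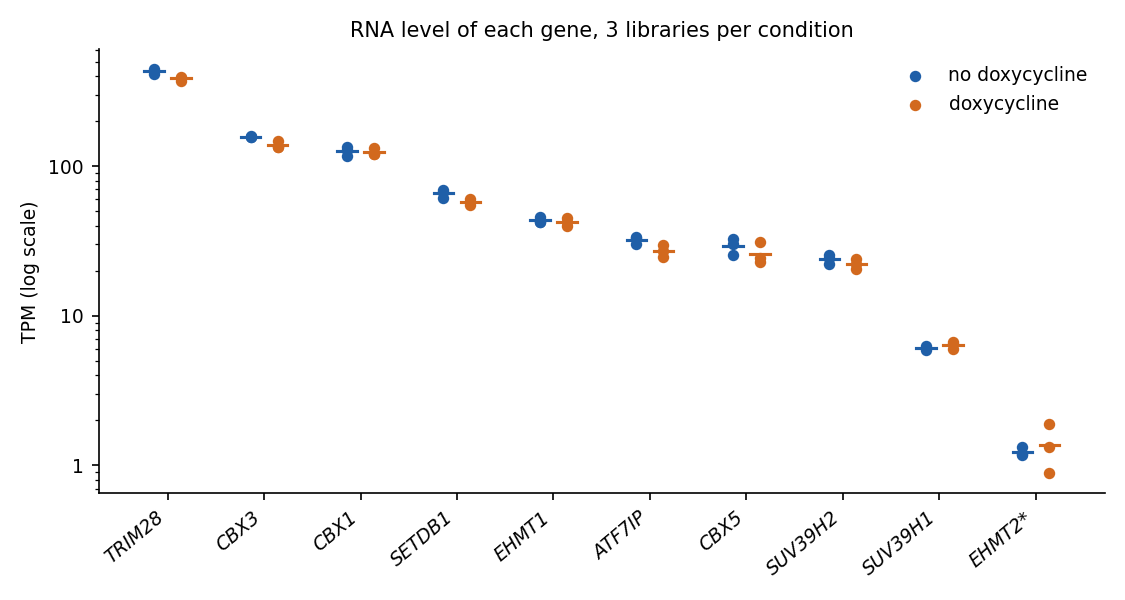
TPM of each gene (log axis) in the 3 libraries without and the 3 libraries with doxycycline, with a bar at each mean. TRIM28 lies between 374 and 443 TPM and SUV39H1 between 5.86 and 6.64, and the order of the genes is the same in both conditions (the asterisk marks EHMT2, which could not be read from these files).

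ZNF10, a zinc-finger gene whose KRAB domain is commonly used in such fusions, was read as a check of the induction. The source of the KRAB domain in this cassette is not given in the sources used here, and counts of the gene and of a fusion cannot be told apart. It had 10.0, 11.8 and 10.7 CPM (counts scaled to a common library size after TMM) without and 362, 374 and 459 CPM with doxycycline, a log2 fold change of 5.19 ± 0.115 (SE, adjusted p = 5.59e-08, edgeR). The libraries held 14683468 to 47862394 counts on genes, and the shallowest was replicate 1 without doxycycline. Whether the counting used the strand is not given in the sources used here, so reads in the stretches where SETDB1 overlaps CERS2, CBX3 overlaps HNRNPA2B1 and SUV39H2 overlaps DCLRE1C may have been split between the genes. Reads shared with processed pseudogenes are a further limit for CBX3, whose 10 named pseudogenes took 0.152% to 0.446% of the summed counts.

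The comparison between conditions asked whether the machinery that dCas9-KRAB recruits was itself regulated. In edgeR's quasi-likelihood test across all genes, 0 of the 10 genes passed an adjusted p of 0.05, where 17.5% of all genes tested did, 8.97% with a higher and 8.48% with a lower level in treated cells. At an unadjusted p of 0.05, 2 of the 10 passed, where 32.5% of all genes did, and DESeq2 called 1, where it called 19.1% of all genes. The CPM of the 3 treated and the 3 untreated libraries did not overlap in 3 of the 10, where they did not in 37.0% of all genes. The log2 fold change was below 0 in 7 of the 10, where it was in 50.4% of all genes. The median over the 10 was -0.08, against -0.0025 over all genes. The genes that passed the test had a median absolute log2 fold change of 0.377, above every estimate for the 10. In bulk RNA, fewer cells of a type and less RNA per cell cannot be told apart.

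TRIM28 had 572, 511 and 501 CPM without and 543, 490 and 470 CPM with doxycycline. The groups overlapped, with a log2 fold change of -0.07 ± 0.073 (SE, 95% interval -0.24 to 0.09, adjusted p = 0.522, edgeR). SETDB1 had 137, 144 and 134 CPM without and 129, 130 and 128 CPM with doxycycline. All 3 treated libraries of SETDB1 lay below the untreated ones, and the log2 fold change of -0.10 ± 0.051 (95% interval -0.21 to 0.01) had an adjusted p of 0.211 in edgeR.

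ATF7IP had the largest estimate of the well-measured genes. Its values were 115, 136 and 134 CPM without and 111, 110 and 117 CPM with doxycycline, so that replicate 1 without doxycycline lay among the treated libraries. The log2 fold change was -0.19 ± 0.071 (95% interval -0.35 to -0.03, adjusted p = 0.101, edgeR). Without that library, which was the shallowest, it was -0.26 with an adjusted p of 0.0147 in edgeR, so that this library decides the call.

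CBX3 had 201, 197 and 198 CPM without and 177, 177 and 184 CPM with doxycycline, and the groups did not overlap. Groups that did not overlap and were lower with doxycycline made up 17.8% of all genes. The difference was a decrease of 9.96%, with a log2 fold change of -0.15 ± 0.049 (95% interval -0.26 to -0.04). It had an adjusted p of 0.061 in edgeR and of 0.034 in DESeq2, which was its 1 call among the 10 genes. CBX1 had 191, 180 and 175 CPM without and 185, 185 and 191 CPM with doxycycline, a log2 fold change of 0.04 ± 0.053 with overlapping groups. CBX5 had 193, 233 and 218 CPM without and 190, 191 and 226 CPM with doxycycline, and its log2 fold change was -0.09 with a 95% interval from -0.29 to 0.11.

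The genes that share promoters with these chromobox genes gave other values. HNRNPA1 fell from 3586, 3370 and 3284 CPM to 2765, 2713 and 2536 CPM, a log2 fold change of -0.35 (adjusted p = 0.00363, edgeR). HNRNPA2B1 had a log2 fold change of -0.07 (adjusted p = 0.456). Whether CBX5 and HNRNPA1 differed in their response was not tested.

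SUV39H1 was the 1 gene whose treated libraries all lay above the untreated ones, at 13.6, 13.0 and 12.9 CPM against 12.7, 12.5 and 11.8 CPM. Such non-overlap occurred in 19.2% of all genes, and the log2 fold change of 0.10 (95% interval -0.07 to 0.26) had an adjusted p of 0.396 in edgeR. SUV39H2 had 25.4, 31.3 and 29.8 CPM without and 25.1, 27.7 and 28.8 CPM with doxycycline. EHMT1 had 100.1, 95.6 and 92.9 CPM without and 95.0, 86.7 and 94.5 CPM with doxycycline. Their log2 fold changes were -0.09 and -0.06 with overlapping groups. On the TPM scale, 4 of the 10 genes had treated libraries that were all below the untreated ones, TRIM28, SETDB1, ATF7IP and CBX3, where 18.4% of all genes did, and none had them all above, where 13.2% did. Non-overlap in either direction was seen in 31.6% of all genes on this scale.

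**Figure D4:**
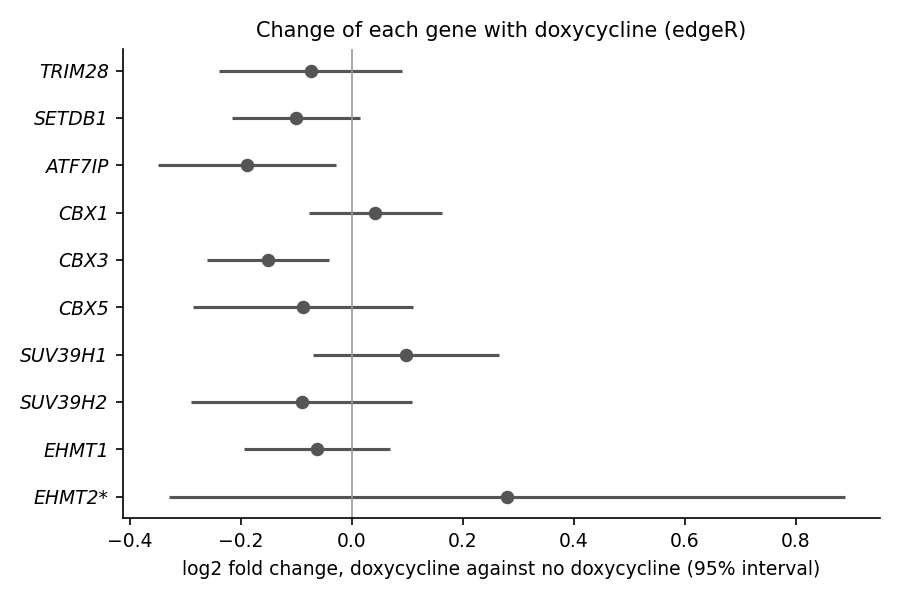
Log2 fold change of each gene with doxycycline, with its 95% interval (edgeR). Of the 9 genes other than EHMT2 (asterisk), every interval lies between -0.35 and 0.26, and those of ATF7IP and CBX3 do not reach 0 before adjustment over all genes.

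The estimates per transcript added no call. Of the 76 transcripts of these genes that were tested, 0 passed an adjusted p of 0.05 in edgeR, where 0.661% of all transcripts did, 9 passed an unadjusted p of 0.05, where 11.8% did, and DESeq2 called 2 of the 46 with an adjusted p, where it called 7.19% of all such transcripts. The lowest adjusted p was 0.170 for TRIM28-204, the transcript with the highest summed TPM of the gene. It had 95.1, 100.1 and 91.3 TPM without and 71.0, 78.0 and 76.6 TPM with doxycycline, a log2 fold change of -0.29 ± 0.068. The estimates for TRIM28-201 and TRIM28-202 were 19.5% and 19.3% of the gene's TPM without and 20.6% and 19.2% with doxycycline. The DESeq2 calls were TRIM28-204 and CBX3-202, the main transcript of CBX3. EHMT1-223, a short coding transcript, had 4.96, 6.66 and 5.50 TPM without and 3.08, 2.90 and 3.61 TPM with doxycycline, with a log2 fold change of -0.78 ± 0.217 and an adjusted p of 0.231. The error of assigning reads between transcripts of a gene is not part of these tests.

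The rest of the pathway was read from the same fit over a list of 59 genes, all of which were tested. Of these, 6 were lower and 1 was higher with doxycycline, or 11.9%, where 17.5% of all genes were called. The median log2 fold change of the list was -0.07. The methyltransferases and partners beyond the 10 genes (0 of 6), the SUMO pathway that modifies TRIM28 and SETDB1 (0 of 8) and the Polycomb chromobox genes (0 of 5), which bind another mark, held no call.

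Among the H3K9 demethylases, 2 of 11 fell. KDM4C fell from 81.0, 78.0 and 75.1 CPM to 50.9, 47.1 and 48.4 CPM, a log2 fold change of -0.68 (adjusted p = 7.88e-05, edgeR). KDM4A had a log2 fold change of -0.24 (adjusted p = 0.048). Of the HUSH complex and MORC genes, which silence transposons together with SETDB1, 1 of 5 fell. This was MPHOSPH8, the chromodomain subunit of HUSH, from 87.2, 89.5 and 81.7 CPM to 56.8, 51.8 and 54.4 CPM (log2 fold change -0.66, adjusted p = 0.000124, edgeR). KDM4C and MPHOSPH8 had larger estimates than any of the 10 genes of the core machinery.

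Of the 12 NuRD genes, which encode the deacetylase and remodelling complex that TRIM28 also binds, MBD3 rose (log2 fold change 0.24, adjusted p = 0.044, edgeR) and MTA3 fell (-0.17, adjusted p = 0.040). Of the 12 HP1-associated and heterochromatin genes, 2 fell. LBR, the lamin B receptor that tethers HP1 to the nuclear envelope, went from 110, 120 and 121 CPM to 95.4, 96.1 and 93.2 CPM (-0.30, adjusted p = 0.00639). UHRF1, which binds H3K9me3 and hemimethylated DNA, went from 35.9, 34.9 and 32.8 CPM to 27.5, 24.6 and 26.2 CPM (-0.40, adjusted p = 0.00444). The count of the list was 4 in place of 7 without replicate 2 of either condition, and 10 with DESeq2.

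**Figure D5:**
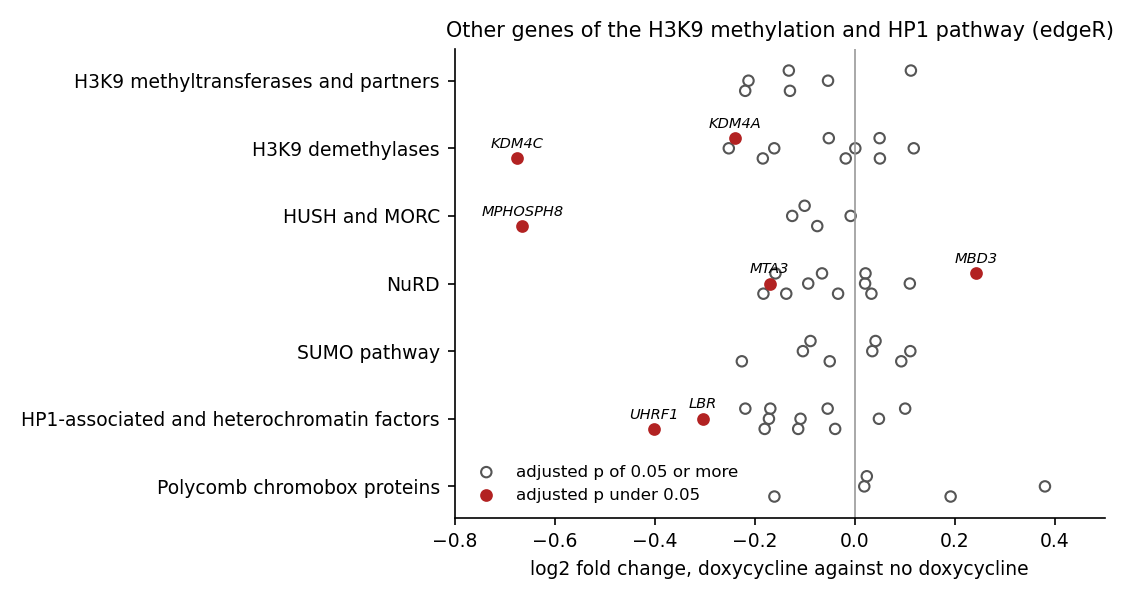
Log2 fold change with doxycycline of the 59 other pathway genes by group (edgeR), with filled points for an adjusted p under 0.05. KDM4C (-0.68) and MPHOSPH8 (-0.66) lie furthest from 0, and MBD3 (0.24) is the 1 call above 0.

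Some markers of the cell state differed between conditions. All 8 pluripotency markers had 27.8 TPM or more in every library, with POU5F1 at 168 to 250 TPM. Of these 8, 4 fell: TDGF1 by 1.13, DNMT3B by 0.60, NANOG by 0.57 and SALL4 by 0.22 on the log2 scale, where 8.48% of all genes fell. The log2 fold changes of POU5F1 (-0.12), SOX2 (-0.19), LIN28A (-0.14) and DPPA4 (0.05) did not pass the test. Of 9 markers of differentiated lineages, 6 were tested and 2 rose, GATA6 (log2 fold change 1.46, at 0.311 to 1.07 TPM) and TUBB3 (0.38), where 8.97% of all genes rose. TBXT, SOX17 and AFP were at 0 to 0.0995 TPM and were not tested, and the mesoderm marker HAND1 had 104 to 143 TPM in both conditions. The part of the cell state in the values of the 10 genes was not tested.

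The genes most like TRIM28 and SETDB1 in these libraries were found by the root mean square (RMS) difference of the mean-centred log2 CPM over all 6. For TRIM28 they were ETNK2 (0.0225), CXXC1 (0.0235) and DPF1 (0.0253). For SETDB1 they were USP10 (0.0140), TRA2B (0.0155) and NCBP2 (0.0158).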

How the data were processed

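RNA-seq, YY1, H3K9me3 and OCT4 ChIP-seq files of NCCITs were used. Conditions and replicate numbers were taken from the labels, the dose and its duration from the methods of the paper, and ChIP-seq libraries with no number in the label were called replicate 1. A table of YY1 HiChIP contacts was not used, because its 16 per-sample columns could not be assigned to conditions.

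For RNA-seq, poly(A) RNA, the deposited files are those of kallisto, with an estimated count and a TPM value for each transcript as the authors obtained them, not normalized further. The annotation release behind them is not given in the sources used here. Of 188753 targets, 166506 were placed on genes of GENCODE v44lift37, and these took 95.9% to 96.0% of the counts. The estimated counts were summed per gene, rounded and tested by quasi-likelihood in edgeR 4.0.16 (R 4.3.3) after filterByExpr and TMM, with p-values adjusted over all genes by Benjamini-Hochberg and called at 0.05. Depth was 14683468 to 47862394 counts per library. Intervals were taken from the fit's standard errors, and cover the spread between libraries.

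For ChIP-seq, reads were trimmed (TrimGalore!) and mapped on hg19 (BWA MEM) by the authors, who left out duplicates and reads with a mapping quality of 10 or less and called peaks with default settings. The caller is not given in the sources used here. The deposited lists give fold enrichment as a ratio and p- and q-values as −log10, per library, and no read depth, so the precision of single peaks is unknown. A promoter carried a peak that shared at least 1 bp with the 1000 bp on either side of the main TSS.

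The genes named were the 10 genes, ZNF10, up to 3 called genes of each pathway group by lowest p, the 3 genes most like TRIM28 and SETDB1, genes whose TSS lies in a promoter window, called transcripts, and cell type markers. The members and all lists were chosen with earlier results of these data known. Alternatives were DESeq2 1.42.0, its size factors, other filters, a replicate block, length-scaled counts, protein-coding transcripts, other windows, TSS and peak thresholds, and leaving out libraries. The TSS of the canonical transcript was added after seeing the data. Scripts were tested on simulated data. Python 3.11.15, numpy 2.4.6, pandas 2.3.3, scipy 1.17.1, pyfaidx 0.9.0.4 and matplotlib 3.10.9 were used.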

Additional observations from a re-analysis of the deposited data

Results flagged for a closer look

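A signal in targets that the comparisons did not use was seen for EHMT2. The 12 targets outside the annotation that had the length of an EHMT2 coding transcript and shared their values with another in all 6 libraries summed to 22.0 TPM in the lowest library, where the gene itself was listed at 0.886 to 1.89 TPM. The files do not name the gene of these targets.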

How the results depend on the processing

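Of the 10 genes, 0 were called with DESeq2's size factors, without a filter, with at least 10 counts in every library, with a replicate block, with length-scaled counts and with protein-coding transcripts only (where EHMT2 was not tested), and 1 with DESeq2 (CBX3). The cause of the differences between settings was not tested. Leaving out each library gave 0 to 1, the 1 being ATF7IP without replicate 1 of the untreated cells. The fold change turned its direction for EHMT1 with length-scaled counts (0.013) and for EHMT2 without replicate 2 of the treated cells (-0.029), while leaving out each library moved EHMT2 between -0.029 and 0.50. The 7 calls among the 59 pathway genes were 4 with protein-coding transcripts only and 4 to 8 when each library was left out. Member transcripts had 0 calls, 2 with DESeq2, and 0 when each library was left out. With the replicate block, 0 genes, 10 pathway genes and 0 transcripts were called. Whether the numbers pair the samples is not settled, and the main tests took the libraries as unpaired. Same-numbered RNA libraries had correlations of their deviations from the group means of 0.13, 0.08 and -0.00094. Differently numbered ones had -0.127 to 0.0598, so replicates 1 and 2 correlated best with their own number and replicate 3 did not. Some H3K9me3 peaks of these genes also followed the replicate number in both conditions. For the count of genes with an H3K9me3 promoter peak, 1 in each condition, 2000 bp windows gave 2 and 2 (ATF7IP and CBX1), any annotated TSS 2 and 2 (ATF7IP and EHMT1), and 500 bp windows 0 with doxycycline. The YY1 counts were 7 to 9 without and 8 to 9 with doxycycline under every alternative. Peak lists of 2 libraries per condition limit what can be said of peak heights, and the low counts of EHMT2 limit that gene.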
